A study of Mus musculus with 32 samples.

Results

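The tight junction barrier genes considered here are 10 mouse genes: the claudins Cldn1, Cldn3, Cldn4, Cldn7, Cldn8 and Cldn12, occludin (Ocln), the adhesion molecule F11r, and the scaffold proteins Tjp1 and Tjp3. They were chosen by name, with earlier results of these data known. Each was represented by 1 probe set of the 21237 in the table, matched by its Ensembl gene identifier. The samples were normal mouse urothelium, taken from 9 mice, and BC57, a mouse bladder cancer cell line grown in DMEM with 10% fetal bovine serum. Tissue and cell pellet were each split, with one share snap frozen (FF) and the other left in formalin (24 h) before paraffin embedding (FFPE). RNA of each kind was amplified and hybridized in 6 conditions, which gave 32 arrays in 12 groups. FF RNA was amplified from 100 ng with the WT Plus kit, which the series names as its reference (2 arrays per group), and from 2 ng or 0.5 ng with the WT Pico kit (3 arrays per group). FFPE RNA was amplified from 50 ng with the SensationPlus kit (2 arrays per group), and from 2 ng or 0.5 ng with WT Pico (3 arrays per group). Kit and input therefore cannot be told apart outside WT Pico. The sources used here give no strain, age or genotype of the mice and do not say whether their RNA was pooled. BC57 is 1 cell line, so a difference from urothelium is a difference between that line and this tissue, and fewer cells of a type cannot be told apart from less RNA per cell.

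Tight junctions seal the space between neighbouring epithelial cells near their apical side. Claudins are the membrane proteins that make up the junction strands and set which ions pass. Occludin and F11r (also called JAM-A) are further membrane proteins of the junction, and Tjp1 (ZO-1) and Tjp3 (ZO-3) are PDZ-domain scaffolds that tie the membrane proteins to the actin cytoskeleton. In the bladder the junctions between the superficial umbrella cells are part of the barrier that keeps urine out of the tissue.

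Positions are from the RefSeq annotation of GRCm38.p6. Cldn3 (probe set ENSMUSG00000070473_at, chr5:134986214-134987476) and Cldn4 (ENSMUSG00000047501_at, chr5:134945123-134946934) are neighbours on opposite strands, 39279 bases apart. Cldn1 (ENSMUSG00000022512_at, chr16:26356645-26371839) and Cldn8 (ENSMUSG00000050520_at, chr16:88560826-88563183) share a chromosome but lie far apart. Cldn7 (ENSMUSG00000018569_at) is at chr11:69964779-69967886 and Cldn12 (ENSMUSG00000046798_at) at chr5:5505015-5514976. Ocln (ENSMUSG00000021638_at) is at chr13:100496504-100552718 and F11r (ENSMUSG00000038235_at) at chr1:171437561-171464593. Tjp1 (ENSMUSG00000030516_at) spans chr7:65296165-65527850 and Tjp3 (ENSMUSG00000034917_at) chr10:81273188-81291581. RefSeq promoter windows of 300 bases, 250 before and 50 after a gene's start, were at hand for 9 of the 10 genes (all but Cldn8). Those of Cldn3 and Cldn4, the neighbouring pair whose differences between cell types were unlike, and of Cldn1, the most like Cldn3 over the groups, are shown 5′ to 3′ on the gene's strand. Capitals mark CACCTG, a form of the E-box CANNTG that zinc-finger repressors such as Snai1 are known to bind, and the GC box GGGCGG bound by Sp1-type factors, each on either strand.
Cldn3 (chr5:134985964-134986263, plus strand): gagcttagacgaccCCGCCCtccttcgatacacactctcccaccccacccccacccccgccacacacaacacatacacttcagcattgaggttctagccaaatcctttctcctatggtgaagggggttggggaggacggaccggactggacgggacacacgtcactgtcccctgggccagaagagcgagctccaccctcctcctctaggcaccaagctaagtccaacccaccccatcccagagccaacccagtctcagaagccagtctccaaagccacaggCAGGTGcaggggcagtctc
Cldn4 (chr5:134946885-134947184, minus strand): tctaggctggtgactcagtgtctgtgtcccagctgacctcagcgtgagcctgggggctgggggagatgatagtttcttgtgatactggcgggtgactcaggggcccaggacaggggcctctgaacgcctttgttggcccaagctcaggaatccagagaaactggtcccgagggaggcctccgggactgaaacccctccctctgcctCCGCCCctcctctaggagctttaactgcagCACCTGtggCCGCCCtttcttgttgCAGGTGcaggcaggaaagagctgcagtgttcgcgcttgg
Cldn1 (chr16:26371790-26372089, minus strand): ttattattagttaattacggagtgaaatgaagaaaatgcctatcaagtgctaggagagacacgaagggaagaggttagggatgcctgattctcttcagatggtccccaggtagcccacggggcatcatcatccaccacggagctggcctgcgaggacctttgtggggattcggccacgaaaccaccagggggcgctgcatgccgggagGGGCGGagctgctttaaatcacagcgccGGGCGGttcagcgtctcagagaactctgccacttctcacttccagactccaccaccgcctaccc
CACCTG was found once in the Cldn3 window, at 2 places in the Cldn4 window and at 0 in that of Cldn1. GGGCGG was found at 1 place for Cldn3, at 2 for Cldn4 and at 2 for Cldn1. Over the 14 windows of the 9 genes, several of which overlap, 8 held CACCTG and 10 held GGGCGG, against 20.2% and 35.7% of all 32851 RefSeq mouse windows. The looser CANNTG was in 9 of the 14 and in 72.3% of all windows, and AACCGGTT, the palindrome bound by grainyhead-like factors, in 0 of the 14 and in 0.146% of all. These are matches of letters only.

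Values were log2 RMA expression values as deposited. A difference was called when its limma p, adjusted by Benjamini-Hochberg over all 21237 probe sets, was under 0.05 and it reached 2-fold, or 1 on the log2 scale. Array medians ran from 5.28 to 5.80 and no pair of arrays held identical values. The labels do not tie the arrays of a group to separate mice or cultures, so p-values measure only the spread between these arrays, which may be technical. Markers of urothelium or of other cell types could not be checked, because the identifiers of other genes were not paired with names in the sources used here. All 10 genes were brighter, by their mean over all arrays, than the median probe set. Within groups some values were dimmer. Those of Cldn3 in urothelium and Cldn8 in BC57 lay in quintile 2 or 3 of each array, counted from the dim end. In urothelium FFPE RNA, Cldn8 with WT Pico and Cldn1 were also in quintile 3 on most arrays. Cldn3 in urothelium was in quintile 3, the middle of the array, on most arrays, and Cldn8 in BC57 mostly in quintile 2. Detection calls were not used here, so a low value is not shown to be expression.

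Frozen RNA at 100 ng gave the reference difference between BC57 and urothelium. Of the 10 genes, 2 were called higher in BC57 (Cldn3 and Cldn1) and 2 lower (Cldn8 and Tjp3), against 8.06% and 7.36% of all probe sets, or 15.4% in either direction. At an adjusted p under 0.05 alone 9 of the genes passed, against 50.7% of all probe sets, and the groups of 9 did not overlap, against 74.9%. The median difference of the 10 was 0.42 on the log2 scale and that of all probe sets 0.07.

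Cldn3 is a sealing claudin, and with Cldn4 it is a known receptor of the Clostridium perfringens enterotoxin. It read 9.39 and 8.94 on the BC57 arrays and 4.97 and 4.92 on the urothelium arrays. Both BC57 arrays lay far above both urothelium arrays, although they differed from each other more than the urothelium pair did. The difference was 4.22 ± 0.14 (SE) on the log2 scale, or 18.7-fold, with a limma adjusted p of 2.7e-06. Cldn1, the claudin whose loss breaks the water barrier of mouse skin, read 9.17 and 9.15 in BC57 and 6.75 and 6.85 in urothelium. The groups were apart by 2.36 ± 0.06, or 5.15-fold (limma adjusted p = 1.1e-06).

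Cldn8, which in mouse kidney cells is known to recruit Cldn4 to the junction, ran the other way. It read 7.54 and 7.53 in urothelium and 3.80 and 4.06 in BC57. BC57 was lower by 12.2-fold (log2 difference -3.61 ± 0.10, limma adjusted p = 1.1e-06). Tjp3, a scaffold found mainly in epithelia, was at 8.34 and 8.40 in urothelium and at 7.29 and 7.23 in BC57, a log2 difference of -1.11 ± 0.06 (limma adjusted p = 1.8e-05).

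Cldn4, the sealing claudin encoded next to Cldn3, was not separated by cell type. It read 10.70 and 10.75 in urothelium and 10.95 and 10.55 in BC57, so the BC57 arrays lay on either side of the urothelium pair. The log2 difference was 0.03 with a 95% interval from -0.30 to 0.35 (limma adjusted p = 0.892). The remaining genes differed by less than 2-fold but passed the adjusted p: Cldn7, Cldn12, Ocln and Tjp1 were higher in BC57 by 0.36 to 0.57, and F11r was lower by 0.46 (log2 -0.46 ± 0.07, limma adjusted p = 0.00145). Cldn7 is a claudin also found along the lateral membrane, and Cldn12 is an unusual claudin that lacks the usual PDZ-binding tail.

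**Figure D1:**
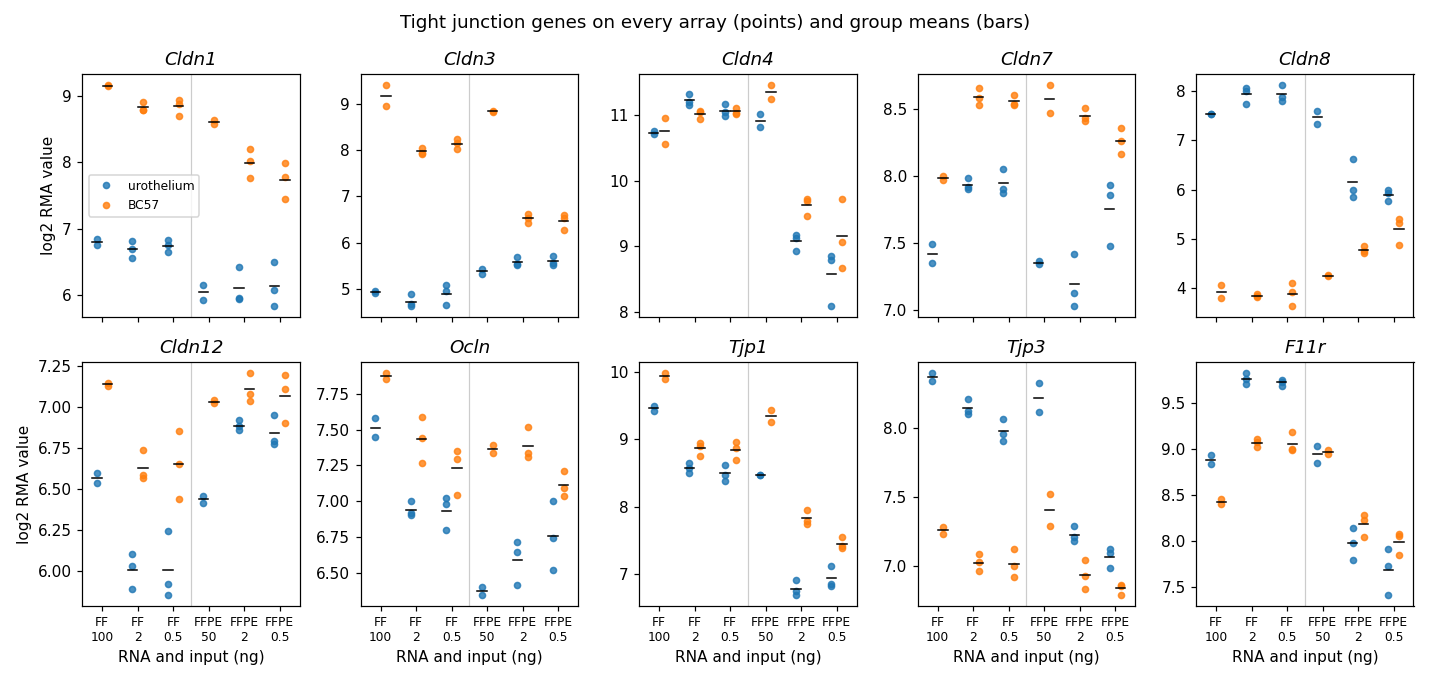
Log2 RMA values of the 10 genes on all 32 arrays, by condition (points, single arrays; colour, cell type; bars, group means). Cldn3 and Cldn1 are higher in every BC57 array than in every urothelium array and Cldn8 is lower, while the cell types interleave for Cldn4.

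The same comparison was made in frozen RNA amplified from 2 ng and 0.5 ng. At 2 ng Cldn3 and Cldn1 were again called higher and Cldn8 and Tjp3 lower in BC57 (4 of 10, against 15% of all probe sets, of which 7.63% higher and 7.34% lower). All 10 genes passed the adjusted p alone (57% of all probe sets) and all 10 had groups that did not overlap (64.5%). At 0.5 ng Cldn3, Cldn1 and Cldn8 were called (3 of 10, against 15%, of which 8.11% higher and 6.88% lower), 8 of 10 passed the adjusted p alone (43.9% of all probe sets) and the groups of 9 did not overlap (52.8%). The median difference of the 10 was 0.39 at 2 ng and 0.32 at 0.5 ng, and that of all probe sets 0.10 and 0.07.

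Cldn3 at 2 ng read 8.05, 7.95 and 7.90 in BC57 and 4.63, 4.68 and 4.89 in urothelium, a log2 difference of 3.23 ± 0.08. At 0.5 ng it read 8.14, 8.23 and 8.03 in BC57 and 5.11, 4.66 and 4.97 in urothelium, a difference of 3.22 ± 0.13. Every BC57 array at low input lay below both BC57 arrays at 100 ng, and the cell types stayed far apart. Cldn8 at 2 ng read 8.01, 8.06 and 7.73 in urothelium and 3.84, 3.81 and 3.89 in BC57 (-4.09 ± 0.09). At 0.5 ng it read 7.89, 8.12 and 7.80 in urothelium and 3.63, 4.10 and 3.91 in BC57 (-4.05 ± 0.14), and the groups stayed far apart at both inputs.

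Cldn1 differed by 2.15 ± 0.08 at 2 ng and 2.10 ± 0.10 at 0.5 ng. Tjp3 read 8.11, 8.21 and 8.13 in urothelium and 7.08, 6.96 and 7.03 in BC57 at 2 ng (-1.12 ± 0.06). At 0.5 ng its difference was -0.96 ± 0.10, just inside 2-fold (limma adjusted p = 9.3e-06). It passed 2-fold, by very little, without urothelium replicate 3 and reached -1.02 without BC57 replicate 3.

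Among the other membrane proteins F11r was lower in BC57 by 0.70 at 2 ng (log2 -0.70 ± 0.05, limma adjusted p = 1.9e-06) and by 0.67 at 0.5 ng (-0.67 ± 0.08, limma adjusted p = 3.0e-05). Cldn4 at 2 ng was -0.20 ± 0.06 (limma adjusted p = 0.0164), with no overlap between the groups. Quantile normalization ended this pass (-0.12, limma adjusted p = 0.34). At 0.5 ng the difference of Cldn4 was -0.01, 95% interval -0.15 to 0.13 (limma adjusted p = 0.906). Cldn7 and Cldn12 differed by 0.61 to 0.65 at both inputs. Ocln was 0.49 at 2 ng and did not pass at 0.5 ng (0.29 ± 0.11, limma adjusted p = 0.0587).

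The comparison was then made in FFPE RNA. At 50 ng with SensationPlus 3 genes were called higher in BC57 (Cldn3, Cldn1 and Cldn7) and 1 lower (Cldn8), 4 of 10 against 15.7% of all probe sets, of which 9.19% higher and 6.48% lower. There 9 of the genes passed the adjusted p alone (43.9% of all probe sets) and the groups of 9 did not overlap (70.1%). At 2 ng with WT Pico Cldn1, Cldn7 and Tjp1 were called higher and Cldn8 lower, 4 of 10 against 7.36%, of which 4.94% higher and 2.42% lower. The adjusted p alone was passed by 8 (38.7% of all probe sets), and the groups of 9 did not overlap (52.9%). At 0.5 ng Cldn1 alone of the 10 was called, against 4.5%, of which 3.05% higher and 1.45% lower. At that input 4 of 10 passed the adjusted p alone, against 16.3%, and the groups of 7 did not overlap, against 38.8%. The median difference of the 10 was 0.74, 0.67 and 0.43 at 50 ng, 2 ng and 0.5 ng, and that of all probe sets -0.01, -0.10 and -0.08.

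At 50 ng Cldn3 was well separated, with 8.83 and 8.84 in BC57 and 5.45 and 5.33 in urothelium (log2 difference 3.44 ± 0.09). At 2 ng the BC57 arrays read 6.62, 6.43 and 6.54 and the urothelium arrays 5.54, 5.54 and 5.70, a difference of 0.94 ± 0.09 (limma adjusted p = 0.000134). At 0.5 ng they read 6.27, 6.60 and 6.54 against 5.72, 5.56 and 5.53, a difference of 0.87 ± 0.12 (limma adjusted p = 0.00343). The groups still did not overlap, but neither difference reached 2-fold as deposited, and both did after quantile normalization of the arrays (1.28 at each input). Scaling thus decided that call, with 1.05 at 2 ng and 0.93 at 0.5 ng when arrays were centred on their medians.

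Cldn8 at 50 ng read 7.33 and 7.60 in urothelium and 4.24 and 4.27 in BC57 (-3.21 ± 0.12). At 2 ng it read 5.85, 6.63 and 6.00 in urothelium and 4.85, 4.76 and 4.71 in BC57 (-1.39 ± 0.19, limma adjusted p = 0.000653). At 0.5 ng it read 5.93, 5.77 and 5.99 in urothelium and 5.32, 4.88 and 5.40 in BC57 (-0.70 ± 0.15, limma adjusted p = 0.0216). The urothelium arrays came down and the BC57 arrays went up, and they did not meet.

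Cldn1 was called in all 6 conditions. It read 8.64 and 8.58 in BC57 and 6.15 and 5.93 in urothelium at 50 ng of FFPE RNA (2.57 ± 0.10). At 2 ng it read 8.20, 7.77 and 8.02 in BC57 and 6.42, 5.95 and 5.94 in urothelium (1.89 ± 0.16). At 0.5 ng it read 7.45, 7.99 and 7.77 against 6.07, 6.49 and 5.82 (1.61 ± 0.21, limma adjusted p = 0.00261), and the groups were apart in each case.

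Cldn7 was called in 2 of the 6 conditions. At FFPE 50 ng it read 8.68 and 8.47 in BC57 and 7.36 and 7.34 in urothelium (1.23 ± 0.10, limma adjusted p = 0.000218). At FFPE 2 ng it read 8.43, 8.41 and 8.51 against 7.42, 7.02 and 7.12 (1.26 ± 0.12, limma adjusted p = 8.4e-05). The 50 ng value fell to 0.82 after quantile normalization, below 2-fold, and at FFPE 0.5 ng the difference was 0.51 ± 0.14 (limma adjusted p = 0.0523).

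The scaffold Tjp1 at FFPE 2 ng read 7.74, 7.78 and 7.96 in BC57 and 6.69, 6.74 and 6.91 in urothelium, a log2 difference of 1.04 ± 0.10 (limma adjusted p = 0.000115). This call sat at the 2-fold limit: it lay just under without urothelium replicate 1, at 0.98 without BC57 replicate 3 and at 0.97 after quantile normalization. Ocln at FFPE 50 ng lay at the same limit from below (0.99 ± 0.08, limma adjusted p = 0.000232). It read 7.39 and 7.34 in BC57 and 6.40 and 6.35 in urothelium, and it passed 2-fold without urothelium replicate 1 or BC57 replicate 2 (1.02 each) or with arrays centred (1.09).

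Tjp3 and F11r, both lower in BC57 in every frozen condition, were not called in FFPE RNA as deposited. Tjp3 was -0.82 ± 0.12 at 50 ng, -0.29 ± 0.09 at 2 ng (limma adjusted p = 0.0337) and -0.23 ± 0.09 at 0.5 ng (limma adjusted p = 0.136). After quantile normalization Tjp3 was -1.09 at 50 ng, a gained call (limma adjusted p = 0.000409), -0.66 at 2 ng and -0.50 at 0.5 ng, which then passed the adjusted p (limma, 0.0433). The direct test of 50 ng against FF 100 ng did not pass for Tjp3 (0.29 ± 0.14, limma adjusted p = 0.236). F11r read 8.99 and 8.95 in BC57 and 9.03 and 8.85 in urothelium at 50 ng, with a difference of 0.03 (95% interval -0.22 to 0.28, limma adjusted p = 0.86). At 2 ng and 0.5 ng of FFPE RNA it was 0.21 ± 0.12 and 0.31 ± 0.15, neither past the test (limma adjusted p = 0.183 and 0.201). The sign of F11r at 50 ng and 2 ng depended on the scaling, being -0.43 (limma adjusted p = 0.00701) and -0.25 after quantile normalization. Cldn4 was 0.43 ± 0.13 at 50 ng (limma adjusted p = 0.0427), 0.54 ± 0.12 at 2 ng (limma adjusted p = 0.00818) and 0.58 ± 0.30 at 0.5 ng (limma adjusted p = 0.24). Quantile normalization ended both passes of Cldn4, at 0.17 and 0.04 (limma adjusted p = 0.326 and 0.838).

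**Figure D2:**
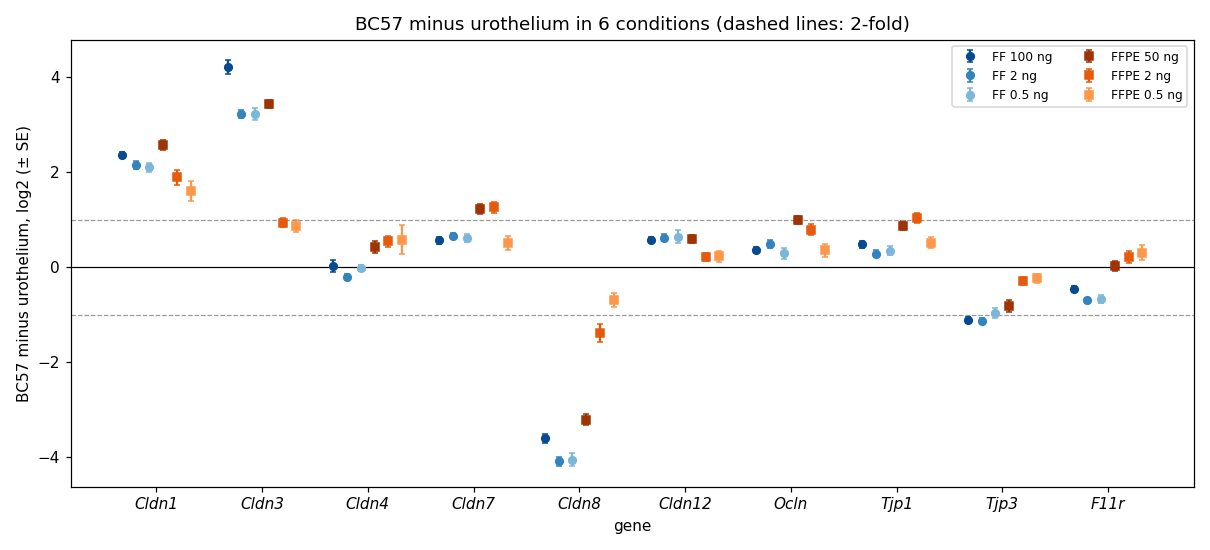
Log2 difference of BC57 minus urothelium for each gene in the 6 conditions (points, limma estimates; bars, SE; dashed lines, 2-fold). Cldn3 lies at 4.22 in frozen RNA at 100 ng and at 0.94 and 0.87 in FFPE RNA at 2 ng and 0.5 ng, and Cldn8 moves toward 0 from the other side.

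Whether these differences depended on the condition was tested directly, as the difference between 2 conditions in BC57 minus urothelium. Of 7 such tests, 4 called Cldn3 and Cldn8, 2 of 10, and these share arrays with each other. For FFPE 2 ng against FF 2 ng, the same kit and input, 6.95% of all probe sets were called. Cldn3 was less apart by 2.29 (log2 -2.29 ± 0.12, limma adjusted p = 7.7e-08) and Cldn8 by 2.70 in its own direction (2.70 ± 0.23, limma adjusted p = 2.2e-06). For FFPE 0.5 ng against FF 0.5 ng, where 7.41% of probe sets were called, the values were -2.35 ± 0.18 and 3.36 ± 0.22 (limma adjusted p = 2.1e-06 and 5.6e-07).

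Against the reference, FFPE 2 ng gave -3.28 ± 0.18 for Cldn3 and 2.22 ± 0.27 for Cldn8 (6.32% of probe sets called). FFPE 0.5 ng gave -3.35 ± 0.21 and 2.91 ± 0.22 (7.46% called). After quantile normalization all 8 were smaller but kept their sign and call: Cldn3 ran from -2.30 to -1.36 and Cldn8 from 1.60 to 2.78. At FFPE 2 ng against FF 2 ng, 8 of the 10 genes passed the adjusted p alone, against 41.9% of all probe sets, among them Tjp3 (0.83 ± 0.10), F11r (0.91 ± 0.13), Tjp1 (0.76 ± 0.12) and Cldn4 (0.75 ± 0.14). After quantile normalization 7 of the 8 still passed: Cldn4 was at 0.16 (limma adjusted p = 0.558), Tjp3 at 0.36 and F11r at 0.54, while Tjp1 was at 0.82. At FFPE 0.5 ng against FF 0.5 ng 4 passed it (19.4%), with Tjp3 at 0.73 ± 0.13 and F11r at 0.98 ± 0.18, and quantile normalization ended the pass of Tjp3 (0.44, limma adjusted p = 0.0773). Against FF 100 ng, FFPE 2 ng gave 7 (24.6%) and FFPE 0.5 ng 4 (17.8%), of which 3 and 2 still passed after quantile normalization.

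In the other 3 tests none of the genes was called. For FF 2 ng, FF 0.5 ng and FFPE 50 ng against FF 100 ng, 0 of the 10 genes were called by limma, against 0.758%, 0.65% and 1.53% of all probe sets. At an unadjusted p under 0.05 there were 3, 1 and 6, and 1, 1 and 4 passed the adjusted p alone, against 5.78%, 1.77% and 10.2% of all probe sets. Cldn3 was at the limit in the frozen tests, with -0.99 ± 0.17 (limma adjusted p = 0.00649) at 2 ng and a value just under 2-fold at 0.5 ng (SE 0.21, limma adjusted p = 0.0378, or 0.062 with arrays centred). Single arrays decided on which side of 2-fold these lay. Without BC57 FF 100 ng replicate 2 these differences were -1.22 and -1.23, and the FFPE 50 ng value moved from -0.78 to -1.01. Other arrays had this effect too: the FF 2 ng value was -1.04 without urothelium FF 2 ng replicate 1. The FF 0.5 ng value was -1.13 without urothelium FF 0.5 ng replicate 2. At FFPE 50 ng Cldn7 (0.66 ± 0.12), Ocln (0.63 ± 0.10) and F11r (0.49 ± 0.11) passed the adjusted p without reaching 2-fold. After quantile normalization Cldn3 (-0.42, limma adjusted p = 0.155) and F11r (0.17, limma adjusted p = 0.305) no longer passed at FFPE 50 ng.

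Within 1 cell type the FFPE and FF arrays of the same kit and input were then compared. Over all probe sets the median FFPE minus FF value was 0.39 in urothelium and 0.28 in BC57 at 2 ng, and 0.47 and 0.39 at 0.5 ng. The 10 genes ran against this shift, with medians of -0.84 and -0.49 at 2 ng and -0.76 and -0.68 at 0.5 ng. With arrays centred on their medians, the medians of the 10 were -1.22, -0.78, -1.17 and -1.07. After quantile normalization they were -0.38, -0.01, -0.47 and -0.05, so the size of the shift of the genes together depended on the scaling.

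In urothelium at 2 ng 4 of 10 genes were called, all lower in FFPE (Cldn4, Cldn8, Tjp1 and F11r). Of all probe sets 10.3% were called lower and 12.4% higher, 22.7% in either direction. All 10 genes passed the adjusted p alone (83.2% of all probe sets). Calls among the 10618 probe sets brighter than the median were mostly lower too. They numbered 2635 and 2665 in urothelium at 2 ng and 0.5 ng, of which 22% and 22.9% were higher. In BC57 they numbered 1311 and 2022, of which 15.9% and 16.4% were higher. Cldn4 read 11.14, 11.32 and 11.20 on the FF arrays and 9.18, 8.93 and 9.13 on the FFPE arrays. It fell by 2.14 (log2 -2.14 ± 0.10, limma adjusted p = 2.1e-09). Tjp1, the scaffold also called ZO-1, read 8.58, 8.51 and 8.65 against 6.69, 6.74 and 6.91, and fell by 1.80. F11r read 9.76, 9.83 and 9.71 against 7.98, 8.14 and 7.79, and also fell by 1.80, though by 0.76, under 2-fold, after quantile normalization. Cldn8 fell by 1.78 from the values given above. The FFPE arrays lay below every FF array for each of these 4 genes.

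Cldn3 and Cldn12 went the other way in urothelium at 2 ng, at 0.85 ± 0.09 and 0.88 ± 0.08, less than 2-fold as deposited and positive under both other scalings, where Cldn12 reached 1.16 after quantile normalization. At 0.5 ng Cldn4, Cldn8, Tjp1 and F11r were again called lower in urothelium (10.2% of all probe sets lower, 18% higher, 28.3% in all), and 8 passed the adjusted p alone (79.5%). The log2 values were -2.48 for Cldn4, -2.05 for F11r, -2.04 for Cldn8 and -1.56 for Tjp1, and Tjp1 was at -0.97 after quantile normalization. Cldn4 was the least even of these, with 8.09, 8.85 and 8.80 on the FFPE arrays and 11.04, 11.16 and 10.99 on the FF arrays.

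In BC57 at 2 ng 3 of 10 genes were called, all lower in FFPE (Cldn3, Cldn4 and Tjp1), against 5.54% of all probe sets lower and 8.26% in either direction (2.72% higher), and 7 passed the adjusted p alone (74%). The log2 values were -1.44 for Cldn3, -1.39 for Cldn4 and -1.04 for Tjp1, and Tjp1 was just under 2-fold without BC57 FFPE 2 ng replicate 1. After quantile normalization 1 of these calls was left, Cldn3 at -1.06. At 0.5 ng 5 genes were called lower and 1 higher, against 8.36% and 6.87% of all probe sets (15.2% in all), and 8 passed the adjusted p alone (76.4%). The log2 values were -1.89 for Cldn4, -1.66 for Cldn3, -1.39 for Tjp1, -1.11 for Cldn1 and -1.07 for F11r, while Cldn8 was higher by 1.32 ± 0.16 (limma adjusted p = 1.3e-05). Quantile normalization left 2 calls here, Cldn3 (-1.24) and Cldn4 (-1.22). Cldn1 was -0.96 without BC57 FFPE 0.5 ng replicate 1 and F11r -0.99 without replicate 3. The rise of Cldn8 was 0.93 with arrays centred and 0.70 after quantile normalization, positive but under 2-fold.

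**Figure D3:**
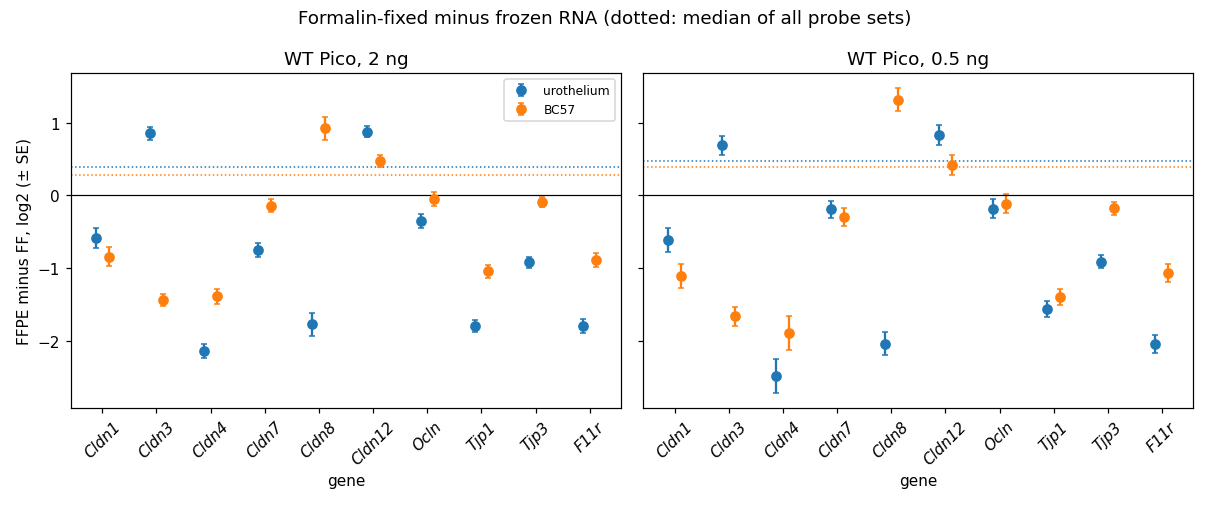
Log2 difference of FFPE minus FF for each gene with WT Pico at 2 ng and 0.5 ng, by cell type (points, limma estimates; bars, SE; dotted lines, median of all probe sets). Cldn4 and Tjp1 lie below -1 in all 4 comparisons, and Cldn3 and Cldn8 have opposite signs in urothelium and BC57.

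Kit and input changed together in the next comparisons. From FF 100 ng to FF 2 ng, 0 of 10 genes were called in urothelium by limma, against 4.04% of all probe sets, with 8 at an unadjusted p under 0.05 and 8 past the adjusted p alone (38.6% of all probe sets). F11r was 0.88 ± 0.06 higher and Tjp1 fell by 0.88, both past the adjusted p but under 2-fold. In BC57 2 were called lower, against 3.67%, and 8 passed the adjusted p alone (32.8%). Cldn3 fell by 1.20 and Tjp1 was at -1.07. Cldn3 was at -0.97 without BC57 FF 100 ng replicate 1. From FF 100 ng to FFPE 50 ng, which differ in fixation, kit and input, Ocln was called lower in urothelium (-1.14 ± 0.07, limma adjusted p = 1.8e-05), 1 of 10 against 7% of all probe sets, and 4 passed the adjusted p alone (59.8%). Quantile normalization left 0 calls there. In BC57 0 were called by limma, against 4.71%, with 8 at an unadjusted p under 0.05 and 6 past the adjusted p alone (43.8%).

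From FFPE 50 ng to FFPE 2 ng, Cldn4 (-1.83 ± 0.13), Tjp1 (-1.69 ± 0.11) and Cldn8 (-1.31 ± 0.19) were called lower in urothelium, 3 of 10 against 7.85% of all probe sets, and 6 passed the adjusted p alone (56.9%). Tjp3 and F11r lay just inside 2-fold (F11r at -0.97) and passed it when urothelium FFPE 2 ng replicate 2 or FFPE 50 ng replicate 2 was left out (-1.03 to -1.10). In BC57 Cldn3 (-2.30 ± 0.09), Cldn4 (-1.72 ± 0.13) and Tjp1 (-1.53 ± 0.11) were called lower, 3 of 10 against 7.34%, and 7 passed the adjusted p alone (50.3%). Quantile normalization left 2 calls in urothelium, where Cldn4 was at -0.77, and 1 in BC57, where Cldn4 was at -0.89 and Tjp1 at -0.95.

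Lowering the WT Pico input from 2 ng to 0.5 ng gave 0 called genes of 10 in each of the 4 comparisons, FF and FFPE in both cell types. The background was 0.0188%, 0.00471%, 0% and 0.0188% for FF urothelium, FF BC57, FFPE urothelium and FFPE BC57. At an unadjusted p under 0.05, limma gave 2, 0, 1 and 2 of the 10. Cldn4 in FFPE BC57 was spread widely, with 9.72, 9.46 and 9.69 at 2 ng and 8.67, 9.07 and 9.73 at 0.5 ng, which overlap.

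Across the 12 groups the order of the levels fell into distinct patterns. Cldn1 ran in BC57 from 7.45 to 9.17 (median 8.68 over 16 arrays) and in urothelium from 5.82 to 6.85 (median 6.52), so every BC57 group ranked above every urothelium group. Cldn3 did likewise, with 6.27 to 9.39 (median 7.99) in BC57 and 4.63 to 5.72 (median 5.22) in urothelium. Cldn8 was the reverse, with urothelium from 5.77 to 8.12 (median 7.54) and BC57 from 3.63 to 5.40 (median 4.17). For these 3 genes the groups of one cell type never interleaved with those of the other. The group means of Cldn7 were ordered by cell type too, from 8.59 to 7.99 in BC57 and from 7.94 to 7.19 in urothelium. Its arrays overlapped between BC57 FF 100 ng (7.99) and urothelium FF 0.5 ng (7.94).

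For Cldn4 the 8 FF and FFPE 50 ng groups led, from a mean of 11.34 down to 10.73, each overlapping its neighbour in the order. The 4 FFPE groups of WT Pico followed, from 9.62 down to 8.58. Tjp1 was also ordered by condition, with FF 100 ng at 9.94 (BC57) and 9.46 (urothelium) and the urothelium FFPE groups of WT Pico last, at 6.93 and 6.78. Tjp3 had the 4 groups of FF and FFPE 50 ng urothelium in front (8.37 to 7.98), and the urothelium FFPE 2 ng group (7.23) overlapped BC57 FF 100 ng (7.26). Cldn12 kept to a narrow range, with its highest mean (7.14) in BC57 FF 100 ng and its lowest means in frozen WT Pico urothelium.

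The likeness of the genes was measured by Pearson's r over the 12 group means, which share arrays' kit, fixation and scaling, and is given as description. Cldn1 and Cldn3 were the most alike (r = 0.907), followed by Cldn4 and F11r (0.889), Cldn4 and Tjp1 (0.847) and Cldn8 and Tjp3 (0.826). Cldn3 and Cldn8 were the least alike (-0.920), and neighbouring Cldn3 and Cldn4 did not pair with each other first. Over the whole table the probe sets closest to Cldn8 were ENSMUSG00000033906 and ENSMUSG00000021340 (both r = 0.995), and those closest to Cldn3 were ENSMUSG00000031732 (0.990) and ENSMUSG00000032902 (0.988), which the sources used here do not name.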

How the data were processed

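Mouse arrays, 32 in 12 groups, were analysed from the log2 expression values that the authors deposited. Per the submitters' processing notes, they were made with RMA and affy. The sources used here state no versions, array design or genome build, nor whether all arrays were normalized in 1 run. Groups came from the sample titles, and 0 value columns were left unmapped. FFPE RNA came from 10 sections of 5 µm, per the labels' protocols. The 10 genes and the tests were chosen with earlier results of these data known. Other gene lists and cell type markers were not analysed here, because the reference table named 0 of the identifiers.

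Tests used limma 3.58.1 in R 4.3.3 (lmFit, then eBayes with a trend on mean intensity). P-values are 2-sided and Benjamini-Hochberg adjusted over 21237 probe sets. BC57 against urothelium was fitted on the arrays of 1 condition, and other contrasts on the 4 groups of the conditions compared, 27 comparisons in all. The fits were tested on simulated data. Alternatives were 1 fit on all 32 arrays, arrays centred on their medians, quantile normalization, brighter probe sets only, no intensity trend, a replicate block, the adjusted p alone, and leaving out each array. Named genes are the 10 members, by rule. Arrays have no read depth, and precision is limited by their number.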

Additional observations from a re-analysis of the deposited data

Results flagged for a closer look

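The difference between BC57 and urothelium itself differed between conditions for Cldn3 and Cldn8, by limma's test of the interaction. Cldn3 was less apart in FFPE RNA amplified with WT Pico, with log2 values of -2.29 (FFPE 2 ng against FF 2 ng), -2.35 (0.5 ng against 0.5 ng), -3.28 (FFPE 2 ng against FF 100 ng) and -3.35 (FFPE 0.5 ng against FF 100 ng). Cldn8, lower in BC57, was less apart too, with 2.70, 3.36, 2.22 and 2.91 in the same order. At FFPE 50 ng with SensationPlus neither gene was called against FF 100 ng (Cldn3 -0.78, Cldn8 0.39). As deposited, the group dimmer at FF rose and the brighter one fell in both genes. Cldn3 in urothelium went from a mean of 4.74 to 5.59 at 2 ng and in BC57 from 7.97 to 6.53. Cldn8 in urothelium went from 7.94 to 6.16 and in BC57 from 3.85 to 4.78. The rises depended on the scaling. After quantile normalization Cldn3 in urothelium rose by 0.31 at 2 ng and by 0.14 at 0.5 ng (limma adjusted p = 0.386). Cldn8 in BC57 rose by 0.43 at 2 ng (limma adjusted p = 0.163) and by 0.70 at 0.5 ng. The falls at 2 ng stayed past 2-fold, at -1.06 for Cldn3 in BC57 and -1.60 for Cldn8 in urothelium. The part of dim signal in these values was not tested.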

How the results depend on the processing

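Calls rested on the 2-fold limit. All 54 differences of at least 2-fold had a limma adjusted p of 0.00261 or less, so the fit on all 32 arrays, the filter on dim probe sets, the fit without trend and the replicate block changed 0 of 270 calls, which says little about stability, while the adjusted p crossed 0.05 in 21, 6, 2 and 8. Centring changed 15 calls and quantile normalization 19.

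Without the 2-fold limit the counts of genes were, for BC57 against urothelium, 9 (FF 100 ng), 10 (FF 2 ng), 8 (FF 0.5 ng), 9 (FFPE 50 ng), 8 (FFPE 2 ng) and 4 (FFPE 0.5 ng). For the tests of a difference against FF 100 ng they were 1, 1, 4, 7 and 4, and 8 and 4 against FF at 2 ng and 0.5 ng. They were 10 and 7 for FFPE against FF at 2 ng in urothelium and BC57, and 8 and 8 at 0.5 ng. From FF 100 ng they were 8 and 8 to FF 2 ng and 4 and 6 to FFPE 50 ng, and from FFPE 50 ng to 2 ng 6 and 7.

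Centring gave 1 call for FF 2 ng against FF 100 ng (Cldn3, -1.05), 5 for FFPE against FF at 2 ng in BC57, 2 for FFPE 50 ng against FF 100 ng in urothelium and 5 for FFPE 2 ng against 50 ng in urothelium. Quantile normalization gave 2 at FFPE 0.5 ng between cell types, 1 and 2 for FFPE against FF in BC57 at 2 ng and 0.5 ng, 0 for FFPE 50 ng against FF 100 ng in urothelium and 1 for FFPE 2 ng against 50 ng in BC57. Over all probe sets the share of calls that were higher in FFPE than FF, as deposited, centred and quantile normalized, was 54.8%, 11.3% and 43% in urothelium and 33%, 10.1% and 44% in BC57 at 2 ng, and 63.8%, 16.2% and 43.4% in urothelium and 45.1%, 9.95% and 42.9% in BC57 at 0.5 ng. For FFPE 50 ng against FF 100 ng it was 36.9%, 25.1% and 48.5% in urothelium and 47.6%, 36.5% and 52.7% in BC57, and for FFPE 2 ng against 50 ng 43.7%, 19.2% and 44.8%, and 37%, 18.3% and 48.5%. Centring moved it from 59% to 46.8% for FF 2 ng against FF 100 ng and from 62% to 73.4% for FFPE 2 ng against FF 2 ng between cell types.

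Of the 270 member differences, 13 turned sign with centring and 36 with quantile normalization, of which 0 and 6 passed the limma adjusted p after turning. Among the differences between cell types and those past the adjusted p as deposited, signs turned for Cldn4 at FF 0.5 ng (0.027 centred, 0.11 quantile), F11r at FFPE 50 ng and 2 ng (-0.43 and -0.25 quantile), and Cldn7 for FFPE 0.5 ng against FF in BC57 (0.53 quantile). The others that turned and passed with quantile normalization were Cldn7 for FFPE 0.5 ng against FF in urothelium (0.67), Cldn7 and Ocln for FFPE 2 ng against FF in BC57 (0.50 and 0.36) and Tjp3 for FFPE 50 ng against FF 100 ng in urothelium (0.22). Leaving out 1 array gave ranges of -0.18 to 0.23 for Cldn4 at FF 100 ng, -0.049 to 0.038 at FF 0.5 ng and -0.061 to 0.12 for F11r at FFPE 50 ng.

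Leaving out 1 array gave 3 to 4 calls between cell types at FF 0.5 ng, 4 to 5 at FFPE 50 ng and 3 to 4 at FFPE 2 ng. It gave 0 to 1 for each of FF 2 ng, FF 0.5 ng and FFPE 50 ng against FF 100 ng, and 2 to 3 for FFPE 0.5 ng against FF 0.5 ng (F11r, up to 1.09, without BC57 FF 0.5 ng replicate 1, urothelium FFPE 0.5 ng replicate 1 or 3, or BC57 FFPE 0.5 ng replicate 3). Cldn3 for FF 2 ng against FF 100 ng passed 2-fold without any of 5 arrays (-1.22 to -1.02), and for FF 0.5 ng also without urothelium FF 0.5 ng replicate 2 (-1.13). Counts for FFPE against FF were 2 to 3 and 5 to 6 in BC57, for FF 2 ng against FF 100 ng in BC57 1 to 2, for FFPE 50 ng against FF 100 ng in urothelium 1 to 2 (Tjp1, -1.03, without urothelium FF 100 ng replicate 1) and for FFPE 2 ng against 50 ng in urothelium 3 to 5.

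With the replicate number as a block, the calls for BC57 against urothelium at FF 100 ng were 4 and changed in 0 comparisons. In 0 of 12 comparisons with 3 pairs did same-numbered arrays deviate together from their group means in every pair. The correlation of a single pair ran from -0.46 (FF 0.5 ng against FF 2 ng in BC57) to 0.29 (between cell types at FF 0.5 ng). In FFPE 50 ng, with 2 arrays per group, it was 0.16 between cell types. With so few arrays this cannot decide whether the numbers pair the arrays.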
